A study of Mus musculus with 4 samples.

Results

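The genes described here build the outer layers of the epidermis. They were chosen by name, 37 genes of the cornified envelope and of late keratinocyte differentiation, and 36 of them were found among the 24441 gene symbols of the tables, while Flg was not analysed here. The libraries came from Langerhans cells, dendritic cells that sample antigen in the epidermis, which were sorted out of epidermal cell suspensions from mice 4 weeks old. In the Tfam cKO group (2 libraries, here Tfam cKO 1 and Tfam cKO 2) floxed Tfam alleles met a CD11c-driven Cre recombinase, which targets Tfam, the gene of a mitochondrial transcription factor, in cells that express CD11c. The wild-type group (WT, 2 libraries, WT 1 and WT 2) is given with no allele of its own, and whether its mice carried floxed alleles or Cre is not given in the labels. Nothing in the labels says from how many mice a library came, so any spread between libraries of a group may be technical or biological. The genes were named with the levels of these same 4 libraries in view, and all levels and orders below are descriptions that lend no support to one another.

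As keratinocytes leave the basal layer they stop dividing, lay down new keratins and load themselves with envelope precursors such as involucrin, loricrin and the small proline-rich proteins. Transglutaminases cross-link these proteins under the membrane, lipid enzymes coat them with ceramides, and desmosomes are rebuilt into corneodesmosomes. In the outermost layer kallikrein-related proteases cut those junctions, held in check by inhibitors such as LEKTI, so that dead corneocytes are shed. The genes were listed here for these roles in keratinocytes, and bulk RNA does not tell which cells held their transcripts.

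Expression was given as FPKM, fragments per kilobase of transcript and adjusted for the number of mapped fragments, which allows levels of different genes to be compared. The Langerhans cell markers were abundant, with summed levels between 16657 and 21209 FPKM over 8 genes and Cd207, the gene for langerin, chosen here as the defining marker, at 1374 and 1528 FPKM in Tfam cKO 2 and 1, against 1495 and 2098 FPKM in WT 2 and 1. Basal keratinocyte markers were abundant in the same libraries, with Krt5, the keratin partner of Krt14 in basal cells, at 3815 and 4480 FPKM in Tfam cKO 2 and 1, against 3003 and 4598 FPKM in WT 2 and 1. Relative sequencing depth, read from the width of the deposited intervals, was 1.55 and 0.884 in Tfam cKO 2 and 1, against 1.36 in WT 2, with WT 1 set at 1. Tfam itself stood at 1.53 and 1.65 FPKM in Tfam cKO 2 and 1, against 1.61 and 3.17 FPKM in WT 2 and 1, so it did not separate the groups, and its whole-gene value may count fragments that lie beyond the deleted exons. The genotypes are named by their labels throughout. The Y-linked gene Ddx3y was at 9.34 FPKM in Tfam cKO 2 and 28.2 FPKM in WT 2 and was listed at 0 in both libraries numbered 1. Xist, the transcript of the inactive X chromosome, was at 45.6 and 39.0 FPKM in Tfam cKO 2 and 1, against 5.38 and 64.6 FPKM in WT 2 and 1, so Tfam cKO 2 held Y-linked transcripts beside an Xist level like that of Tfam cKO 1, and the 2 libraries numbered 2 were not alike in this.

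Many cornified envelope genes separated the libraries by replicate number, and fewer did so by genotype. Both libraries numbered 2 were above both libraries numbered 1 for 23 of the 34 genes that passed the filter of a mean of at least 1 FPKM, and the same order held for 13.7% of the 10910 symbols tested. The opposite order was seen for 2 of the 34 genes and for 23.8% of all symbols. These orders compare values alone, without their intervals. Among the 23 genes, deposited intervals overlapped between the numbers for Sprr1a, Sprr1b, Casp14, Aloxe3, Abca12 and Fabp5. That of Sprr1a began at 49.3 FPKM in WT 2 and reached 57.9 FPKM in Tfam cKO 1. The Tfam cKO libraries were both above those of WT for 7 genes, beside 25.4% of all symbols, and both below them for 0 genes, beside 9.75%. Levels in libraries numbered 2 were at least 2 times those in libraries numbered 1 in both genotypes for 15 of the 34 genes, beside 0.532% of all symbols, or 58 symbols in all. Of the 34 genes, 10 averaged under 1 FPKM in the libraries numbered 1 (Klk5, Ivl, Cnfn, Dsc1, Cdsn, Tgm1, Cst6, Alox12b, Hal and Calml3), so they passed the filter only through higher levels in the libraries numbered 2 or, for Cnfn, in Tfam cKO 2 alone, and could not have been counted with the opposite order. Over the other 24 genes, a division made after the values were seen, both libraries numbered 2 were above both numbered 1 for 14, beside 12.9% of the 10742 symbols that averaged at least 1 FPKM over the libraries numbered 1, and below for 2, beside 24.2%. Of these 24 genes, 6 were at least 2 times as high in both genotypes, beside 0.177% of those symbols. The Tfam cKO libraries were both above those of WT for 6 of the 24, beside the 25.4% of all 10910 symbols given above. The genes were chosen with this contrast in view, so the shares over all symbols are given for scale only. In bulk RNA, more keratinocytes of a layer and more RNA per keratinocyte cannot be told apart.

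**Figure D1:**
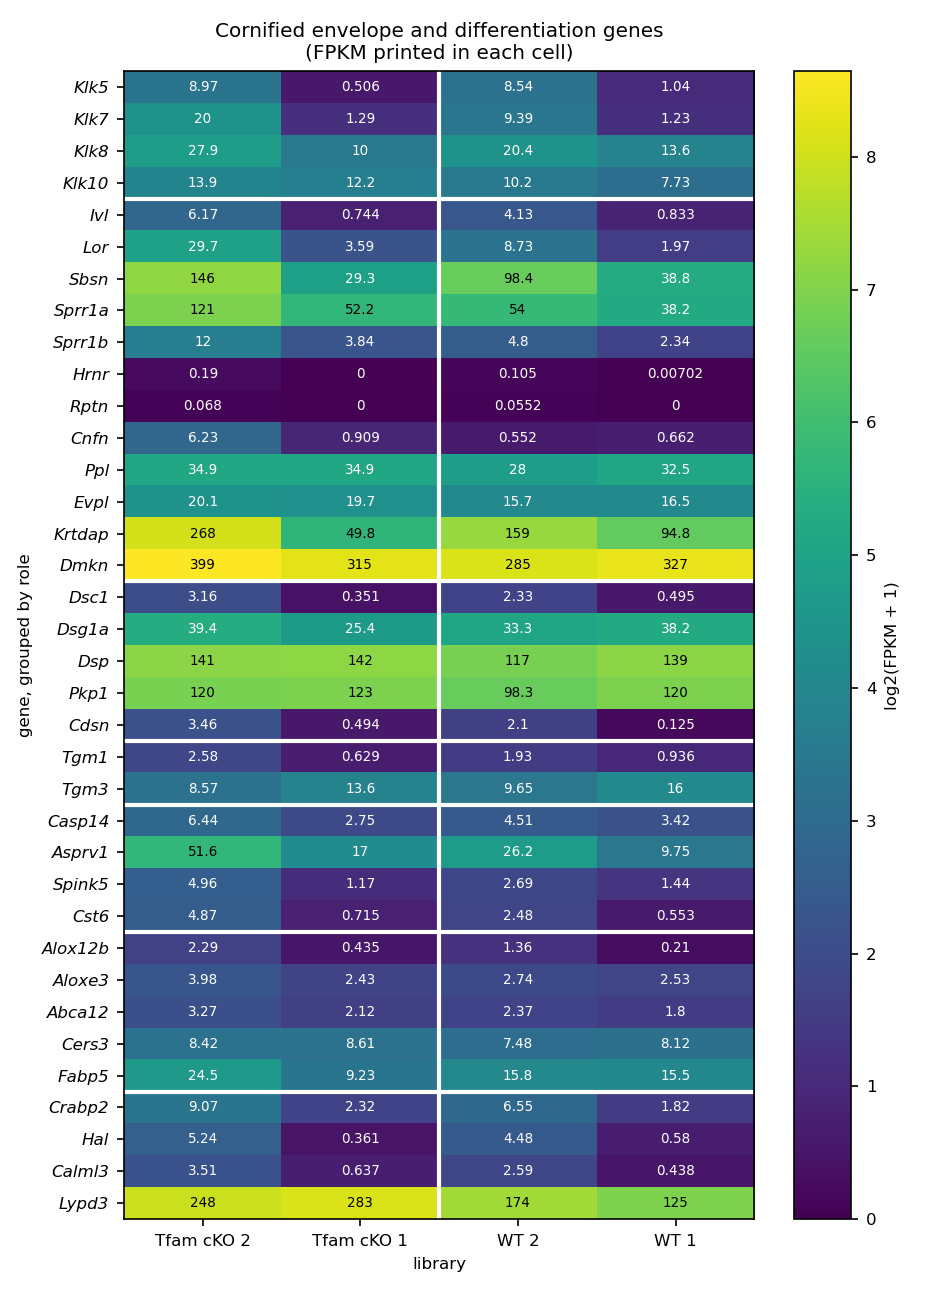
FPKM of the 36 genes (rows, grouped by role) in the 4 libraries (columns), coloured by log2(FPKM + 1) on a scale from dark, low, to light, high. Rows such as Klk5, Klk7, Hal and Cdsn are lighter in both libraries numbered 2 than in both numbered 1, while Dsp, Pkp1, Ppl and Evpl are nearly even across the row.

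The kallikrein-related peptidases, which cut corneodesmosomes, included the genes with the largest ratios between the Tfam cKO libraries, Klk5 and Klk7. Klk7, the chymotrypsin-like enzyme of the stratum corneum, was at 20.0 FPKM in Tfam cKO 2 and 1.29 FPKM in Tfam cKO 1, against 9.39 FPKM in WT 2 and 1.23 FPKM in WT 1. Klk5, the trypsin-like enzyme that activates it, was at 8.97 FPKM in Tfam cKO 2 and 0.506 FPKM in Tfam cKO 1, against 8.54 FPKM in WT 2 and 1.04 FPKM in WT 1. The intervals of Klk5 correspond to 181 fragments in Tfam cKO 2 and 6 in Tfam cKO 1, against 158 in WT 2 and 14 in WT 1, and the intervals of the libraries numbered 2, from 7.18 FPKM up, lie above those of the libraries numbered 1, which reach 1.60 FPKM. The ratio of number 2 over number 1 was 17.7 in Tfam cKO and 8.19 in WT for Klk5, and 15.5 in Tfam cKO and 7.64 in WT for Klk7. Klk8, or neuropsin, kept that order with smaller ratios, at 27.9 FPKM in Tfam cKO 2 and 10.05 FPKM in Tfam cKO 1, against 20.4 FPKM in WT 2 and 13.6 FPKM in WT 1. Klk10 did not follow it. It was at 13.9 and 12.2 FPKM in Tfam cKO 2 and 1, against 10.2 and 7.73 FPKM in WT 2 and 1, so it separated the libraries by genotype, with Tfam cKO higher.

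Among the structural precursors, Lor, which encodes loricrin, the main protein of the mouse envelope, was at 29.7 FPKM in Tfam cKO 2 and 3.59 FPKM in Tfam cKO 1, against 8.73 FPKM in WT 2 and 1.97 FPKM in WT 1. Ivl, for involucrin, the scaffold on which the envelope is first laid, was at 6.17 and 0.744 FPKM in Tfam cKO 2 and 1, against 4.13 and 0.833 FPKM in WT 2 and 1. The groups by genotype overlap for both genes, and the groups by number do not. Sprr1a and Sprr1b, small proline-rich cross-bridging proteins, had the same order. Sprr1a was at 121 and 52.2 FPKM in Tfam cKO 2 and 1, against 54.0 and 38.2 FPKM in WT 2 and 1, and Sprr1b at 12.0 and 3.84 FPKM in Tfam cKO 2 and 1, against 4.80 and 2.34 FPKM in WT 2 and 1. These paralogs are similar in sequence, and how shared reads were divided between them is not given in the sources used here. Hrnr and Rptn, fused S100-type proteins like filaggrin, were near the lower limit, at 0.190 and 0.0680 FPKM in Tfam cKO 2 and 0.105 and 0.0552 FPKM in WT 2. In Tfam cKO 1 both were listed at 0, and in WT 1 Hrnr was at 0.00702 FPKM and Rptn was listed at 0. Neither passed the filter.

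A cluster on chromosome 7 showed how closely neighbours can differ. Sbsn, for suprabasin, Dmkn, for dermokine, and Krtdap, for a keratinocyte differentiation-associated secreted peptide, lie next to each other there, at 31536489 to 31541153, 31548774 to 31566085 and 31572923 to 31576102 as the files list them. The files' coordinates could not be matched to the mm10 build of the submitters' processing notes. Only 5 of the 36 genes, or 13.9%, overlapped the gene of their name in the GENCODE annotation of GRCm38, beside 11.4% of 23922 symbols. The coordinates are thus not those of GRCm38 for most symbols, and which build they follow is unresolved. Sbsn was at 146 FPKM in Tfam cKO 2 and 29.3 FPKM in Tfam cKO 1, against 98.4 FPKM in WT 2 and 38.75 FPKM in WT 1. Krtdap was at 268 FPKM in Tfam cKO 2 and 49.8 FPKM in Tfam cKO 1, against 159 FPKM in WT 2 and 94.8 FPKM in WT 1. For Sbsn and Krtdap the libraries numbered 2 are high and those numbered 1 low. Dmkn, between them and the most abundant of the 36 genes, was at 399 and 315 FPKM in Tfam cKO 2 and 1, against 285 and 327 FPKM in WT 2 and 1, and overlapped both by number and by genotype.

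The upstream sequences of these neighbours and of Lor are shown because their levels do or do not move together over the same libraries. They are RefSeq sequences of build GRCm38.p6, from 250 bases before to 50 bases after the start of transcription, 5′ to 3′ on the strand of the gene. Capitals mark TGACTCA on either strand, the core site of AP-1, and TATAAA on either strand, the TATA box, which do not overlap each other here. Dmkn has 3 starts in the table and the first by position is shown.
Sbsn (chr7:30751221-30751520, plus strand): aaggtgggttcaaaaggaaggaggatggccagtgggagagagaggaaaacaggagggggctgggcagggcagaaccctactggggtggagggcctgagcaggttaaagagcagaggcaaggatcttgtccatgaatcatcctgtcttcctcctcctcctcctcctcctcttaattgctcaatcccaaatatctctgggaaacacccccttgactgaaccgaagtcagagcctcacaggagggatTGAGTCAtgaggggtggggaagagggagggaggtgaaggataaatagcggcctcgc
Dmkn (chr7:30763506-30763805, plus strand): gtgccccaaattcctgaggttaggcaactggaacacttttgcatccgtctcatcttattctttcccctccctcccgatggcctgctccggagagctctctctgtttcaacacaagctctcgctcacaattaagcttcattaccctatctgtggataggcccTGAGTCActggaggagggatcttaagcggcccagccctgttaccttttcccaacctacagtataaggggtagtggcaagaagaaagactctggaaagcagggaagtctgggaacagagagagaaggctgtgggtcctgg
Krtdap (chr7:30787655-30787954, plus strand): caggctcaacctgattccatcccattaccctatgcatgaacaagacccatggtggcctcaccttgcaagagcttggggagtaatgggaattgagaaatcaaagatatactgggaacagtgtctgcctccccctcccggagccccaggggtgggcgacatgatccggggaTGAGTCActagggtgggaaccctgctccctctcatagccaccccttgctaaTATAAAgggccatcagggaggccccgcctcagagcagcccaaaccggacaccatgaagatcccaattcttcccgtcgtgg
Lor (chr3:92083093-92083392, minus strand): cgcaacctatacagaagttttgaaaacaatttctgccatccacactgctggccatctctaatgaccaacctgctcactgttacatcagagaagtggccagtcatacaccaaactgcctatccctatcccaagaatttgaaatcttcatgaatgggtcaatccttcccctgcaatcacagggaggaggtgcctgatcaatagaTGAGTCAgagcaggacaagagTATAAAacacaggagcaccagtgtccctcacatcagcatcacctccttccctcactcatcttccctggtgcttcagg

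The AP-1 motif stands in all of these sequences as its reverse complement, TGAGTCA, and so also in that of Dmkn, whose levels did not order the libraries as those of Sbsn and Krtdap did. RefSeq sequences were matched by symbol for 26 of the 37 genes, and TGACTCA was in those of 6, namely Dmkn, Ivl, Krtdap, Lor, Sbsn and Sprr1a, or 23.1%, beside 5.95% of the 27025 genes in the table. TATAAA was in those of 10 genes, or 38.5%, beside 15.7% of all genes. AACCGGTT, the site of grainyhead-like factors, was in 0 of 26 and in 0.174% of all genes. A match describes letters in this window and was not set against any binding data.

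**Figure D2:**
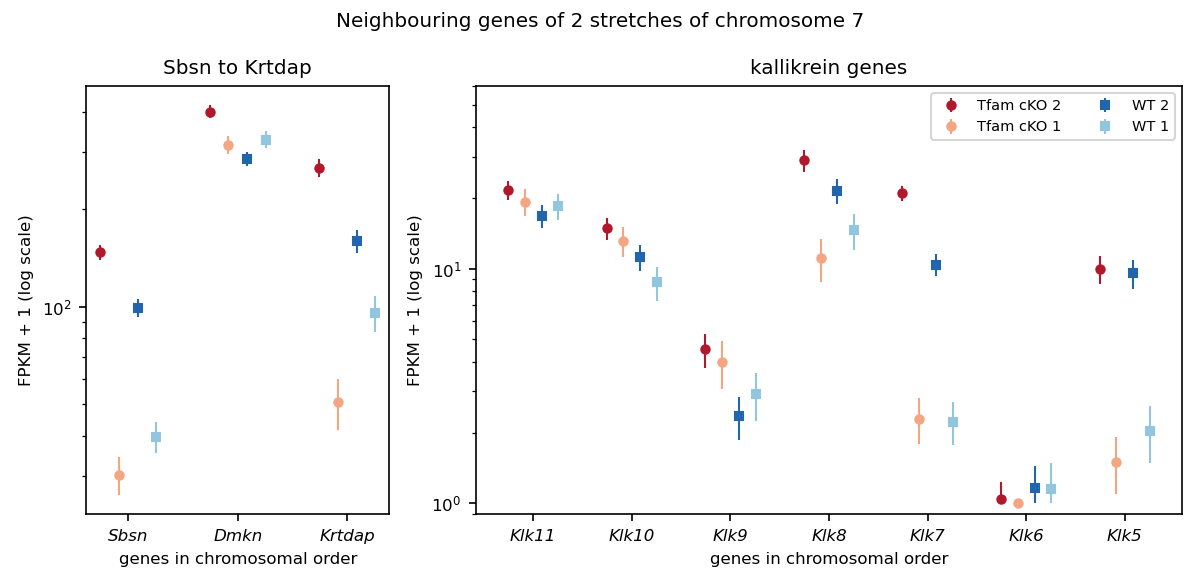
FPKM + 1 (log axis) of neighbouring genes in 2 stretches of chromosome 7, in their order along it, with a point for each library. Bars give the deposited 95% interval, which describes uncertainty within 1 library and not the spread between libraries. Sbsn, Krtdap, Klk8, Klk7 and Klk5 separate the libraries by number, whereas Dmkn, Klk11 and Klk10 beside them do not.

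Desmosome genes differed among themselves. Dsp, for desmoplakin, and Pkp1, for plakophilin 1, which are built into desmosomes of all living layers, were even, with Dsp at 141 and 142 FPKM in Tfam cKO 2 and 1, against 117 and 139 FPKM in WT 2 and 1. Pkp1 was at 120.2 and 123 FPKM in Tfam cKO 2 and 1, against 98.3 and 120.4 FPKM in WT 2 and 1. The ratio of highest to lowest library was 1.22 for Dsp and 1.25 for Pkp1. Dsg1a, for a desmoglein of the upper layers, was at 39.4 and 25.4 FPKM in Tfam cKO 2 and 1, against 33.3 and 38.2 FPKM in WT 2 and 1, with overlap in both directions. Dsc1, the desmocollin of the uppermost living layers, was at 3.16 and 0.351 FPKM in Tfam cKO 2 and 1, against 2.33 and 0.495 FPKM in WT 2 and 1. Cdsn, for corneodesmosin, which seals the late junctions, was at 3.46 and 0.494 FPKM in Tfam cKO 2 and 1, against 2.10 and 0.125 FPKM in WT 2 and 1. These last genes were high in both libraries numbered 2. The plakins Ppl and Evpl, for periplakin and envoplakin, which tie desmosomes to the envelope, were even like Dsp. Ppl was at 34.9 FPKM in Tfam cKO 2 and in Tfam cKO 1, against 28.03 and 32.5 FPKM in WT 2 and 1, and Evpl at 20.1 and 19.7 FPKM in Tfam cKO 2 and 1, against 15.7 and 16.5 FPKM in WT 2 and 1.

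The transglutaminases pointed opposite ways. Tgm1, the membrane-bound enzyme that cross-links the envelope, was at 2.58 and 0.629 FPKM in Tfam cKO 2 and 1, against 1.93 and 0.936 FPKM in WT 2 and 1. Tgm3, an enzyme of the hair follicle as well as the epidermis, was at 8.57 and 13.6 FPKM in Tfam cKO 2 and 1, against 9.65 and 16.04 FPKM in WT 2 and 1. Tgm3 was thus low in both libraries numbered 2, with a ratio of number 2 over number 1 of 0.629 in Tfam cKO and 0.601 in WT. Apart from Pkp1, whose ratios were 0.981 and 0.817, no other of the 34 genes had this order.

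All 4 genes of the protease and inhibitor group were higher in both libraries numbered 2. Asprv1, for the retroviral-like protease that processes profilaggrin, was at 51.6 and 16.95 FPKM in Tfam cKO 2 and 1, against 26.2 and 9.75 FPKM in WT 2 and 1. Spink5, for LEKTI, the inhibitor of KLK5 and KLK7, was at 4.96 and 1.17 FPKM in Tfam cKO 2 and 1, against 2.69 and 1.44 FPKM in WT 2 and 1. Enzyme and inhibitor therefore had the same order of libraries, although the ratio of number 2 over number 1 was smaller for Spink5, at 4.23 in Tfam cKO and 1.87 in WT, than for Klk5 and Klk7. Cst6, for the cysteine protease inhibitor cystatin M/E, was at 4.87 and 0.715 FPKM in Tfam cKO 2 and 1, against 2.48 and 0.553 FPKM in WT 2 and 1. Casp14, the caspase of cornification, lay between 2.75 and 6.44 FPKM with smaller ratios, 2.34 in Tfam cKO and 1.32 in WT.

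Of the 5 genes of the lipid barrier, 4 were higher in both libraries numbered 2, and Cers3 was the exception. Fabp5, the epidermal fatty acid-binding protein gene, was at 24.5 and 9.23 FPKM in Tfam cKO 2 and 1, against 15.8 and 15.5 FPKM in WT 2 and 1, so that its order by number rested on the Tfam cKO libraries, with a ratio of 1.02 in WT. Cers3, for the ceramide synthase of very long chains, was even, at 8.42 and 8.61 FPKM in Tfam cKO 2 and 1, against 7.48 and 8.12 FPKM in WT 2 and 1. Alox12b, for the 12R-lipoxygenase of the barrier, was at 2.29 and 0.435 FPKM in Tfam cKO 2 and 1, against 1.36 and 0.210 FPKM in WT 2 and 1. Its partner Aloxe3 and the lipid transporter gene Abca12 had the same order over narrow ranges, from 2.43 to 3.98 FPKM and from 1.801 to 3.27 FPKM. In the remaining genes, Hal, for histidine ammonia-lyase, which makes urocanic acid in the stratum corneum, was at 5.24 and 0.361 FPKM in Tfam cKO 2 and 1, against 4.48 and 0.580 FPKM in WT 2 and 1. Crabp2, which carries retinoic acid, was at 9.07 and 2.32 FPKM in Tfam cKO 2 and 1, against 6.55 and 1.82 FPKM in WT 2 and 1. Calml3, a calmodulin-like protein gene, was at 3.51 and 0.637 FPKM in Tfam cKO 2 and 1, against 2.59 and 0.438 FPKM in WT 2 and 1. All these were high in both libraries numbered 2.

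The contrast by number was larger between the Tfam cKO libraries. Over the 23 genes with both libraries numbered 2 above both numbered 1, of which 9 passed the filter only through the libraries numbered 2, the ratio of number 2 over number 1 had a median of 5.0003 in Tfam cKO, from 1.54 to 17.7, and of 2.68 in WT, from 1.02 to 16.8, and it was larger in Tfam cKO for 20 of the 23. Tfam cKO 2 was above WT 2 for 23 of the 23, and Tfam cKO 1 was above WT 1 for 11. These genes were picked by their order in the same libraries, and shares over all symbols are not given for these counts. For scale, the median log2 difference of Tfam cKO 2 minus WT 2 was 0.43 over the 34 genes and 0.13 over all symbols. That of Tfam cKO 1 minus WT 1 was 0.04 and 0.02. Over all 34 genes tested, Tfam cKO 2 was the highest library for 29, beside 25.4% of all symbols. Whether the difference between numbers differs by genotype was not tested, since each genotype has 1 library of each number.

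**Figure D3:**
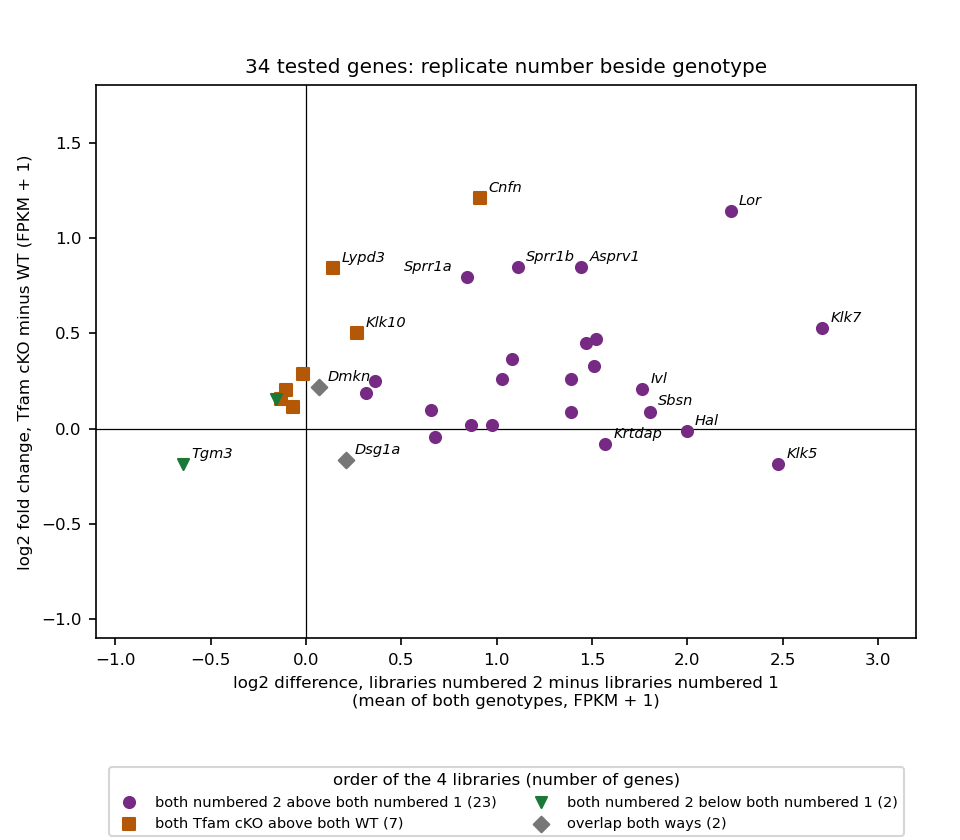
Each of the 34 tested genes by its log2 difference between libraries numbered 2 and numbered 1 (horizontal axis, mean of both genotypes) and its log2 fold change of Tfam cKO minus WT (vertical axis), both on FPKM + 1, with symbols for the order of the libraries. The points spread farther to the right than up, with Klk7 at 2.71 on the horizontal axis and Cnfn at 1.21 the highest on the vertical axis.

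Set against each other with genotype as the only term, none of the 34 genes passed the test. In limma on log2(FPKM + 1) with Benjamini-Hochberg adjustment over all 10910 symbols, 0 of the 34 genes were called, their adjusted p ranged from 0.536 to 0.997, and 3 had an unadjusted p below 0.05; over all symbols 2 were called, 0.0183%, and 6.21% had an unadjusted p below 0.05. The median log2 fold change was 0.21 over the 34 genes and 0.07 over all symbols. The summed level of the 36 genes was 1490 ± 451 FPKM in Tfam cKO and 1144 ± 114 FPKM in WT (SD, n = 2 each), so the spread between the Tfam cKO libraries was larger than the difference. Lypd3, for a Ly6-family surface protein of suprabasal keratinocytes, came nearest to the threshold. It was at 248 and 283 FPKM in Tfam cKO 2 and 1, against 174 and 125 FPKM in WT 2 and 1, without overlap by genotype (log2 fold change 0.84, SE 0.22, limma adjusted p = 0.536). For Klk10 the log2 fold change was 0.50, with SE 0.18 and a limma adjusted p of 0.716. Cnfn, for cornifelin, had 1.21 (SE 0.51, limma adjusted p = 0.80), but this rested on Tfam cKO 2, at 6.23 FPKM, whereas Tfam cKO 1 was at 0.909 FPKM, against 0.552 and 0.662 FPKM in WT 2 and 1, and without Tfam cKO 2 its log2 fold change was 0.25. Ppl, Evpl, Dsp and Cers3, the remaining genes whose libraries separated by genotype, had log2 fold changes from 0.11 to 0.29, and after rescaling to equal totals, which moved the median of all symbols from 0.07 to −0.04, those of Dsp and Cers3 were 0.03 and 0.00.

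The comparison by genotype turned with the library left out. Without Tfam cKO 1, 13 of the 34 genes were called higher and 0 lower, beside 0.577% and 0.174% of all symbols, and the median log2 fold change was 0.93. Without Tfam cKO 2, 3 of the 34, Klk5, Klk7 and Krtdap, were called lower and 0 higher, beside 0.367% and 0.348% of all symbols, and the median was −0.28. In those fits the lone Tfam cKO library is assumed to vary like the WT libraries. The filter was set on the mean of all 4 libraries. Of the genes called without Tfam cKO 1, Klk5, Ivl, Cnfn, Cdsn, Cst6 and Hal averaged under 1 FPKM in the libraries numbered 1. They passed the filter through the libraries numbered 2 or, for Cnfn, Tfam cKO 2 alone, so that count rests in part on the filter. Without WT 1, 0 of the 34 genes were called, beside 0.11% of all symbols higher and 0.0367% lower, and the median was −0.05. Without WT 2, 0 were called, beside 0.119% higher and 0.0275% lower, and the median was 0.67.

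Other genes of cornification, a list of 104 of which 103 were found and 52 tested, followed the number only in part. Both libraries numbered 2 were above both numbered 1 for 17 of the 52, beside 13.7% of all symbols, and below for 10, beside 23.8%, and the median log2 difference between numbers was 0.04, against 0.94 over the 34 genes above and −0.06 over all symbols. By genotype 0 of the 52 passed the test in either direction (limma, 6 at an unadjusted p below 0.05, beside 6.21% of all symbols), with a median log2 fold change of 0.21. The late envelope precursors, 39 genes of the SPRR2, LCE and related families, were low and summed to 40.4 FPKM in Tfam cKO 2 and 10.3 FPKM in Tfam cKO 1, against 17.1 FPKM in WT 2 and 8.76 FPKM in WT 1. Of these, 15 were listed at 0 in Tfam cKO 2 and 26 in Tfam cKO 1, against 24 in WT 2 and 30 in WT 1. Among the 6 genes of highest level, Krt10, the keratin that replaces Krt14 in the spinous layer, was at 671 and 232 FPKM in Tfam cKO 2 and 1, against 547 and 361 FPKM in WT 2 and 1, in the same order as Sbsn and Krtdap. Its partner Krt1, chosen after its values were seen, was not, at 184 and 143 FPKM in Tfam cKO 2 and 1, against 186 and 243 FPKM in WT 2 and 1.

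The other 5 of the 6 did not separate with libraries numbered 2 on top. Cldn1, for the claudin that seals epidermal tight junctions, and S100a14, for a calcium-binding protein, were lower in both libraries numbered 2, Cldn1 at 326 and 394 FPKM in Tfam cKO 2 and 1, against 311 and 386 FPKM in WT 2 and 1, and S100a14 at 263 and 284 FPKM in Tfam cKO 2 and 1, against 190 and 299 FPKM in WT 2 and 1. Serpinb2, for a protease inhibitor found in the envelope, and Cldn4, for another claudin, separated by genotype, with Tfam cKO higher. Serpinb2 was at 1073 and 1219 FPKM in Tfam cKO 2 and 1, against 663 and 907 FPKM in WT 2 and 1. Cldn4 was at 449 and 640 FPKM in Tfam cKO 2 and 1, against 198 and 279 FPKM in WT 2 and 1. Neither passed the threshold (limma adjusted p = 0.804 and 0.396). Perp, for a desmosomal membrane protein, overlapped both ways, at 590 and 503 FPKM in Tfam cKO 2 and 1, against 415 and 512 FPKM in WT 2 and 1. The sum of the 14 other kallikreins, proteases and inhibitors of this list was not higher in the libraries numbered 2. This sum, mostly from Serpinb2, had a ratio of number 2 over number 1 of 0.887 in Tfam cKO and 0.746 in WT. Of these 14 genes 6 were tested, and 0 had both libraries numbered 2 above both numbered 1, while 1 had the reverse order. Klk12 and Serpinb3a, too low to be tested, had both libraries numbered 2 above both numbered 1. The library numbered 2 was higher for 4 of the tested genes within Tfam cKO and for 0 within WT.

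**Figure D4:**
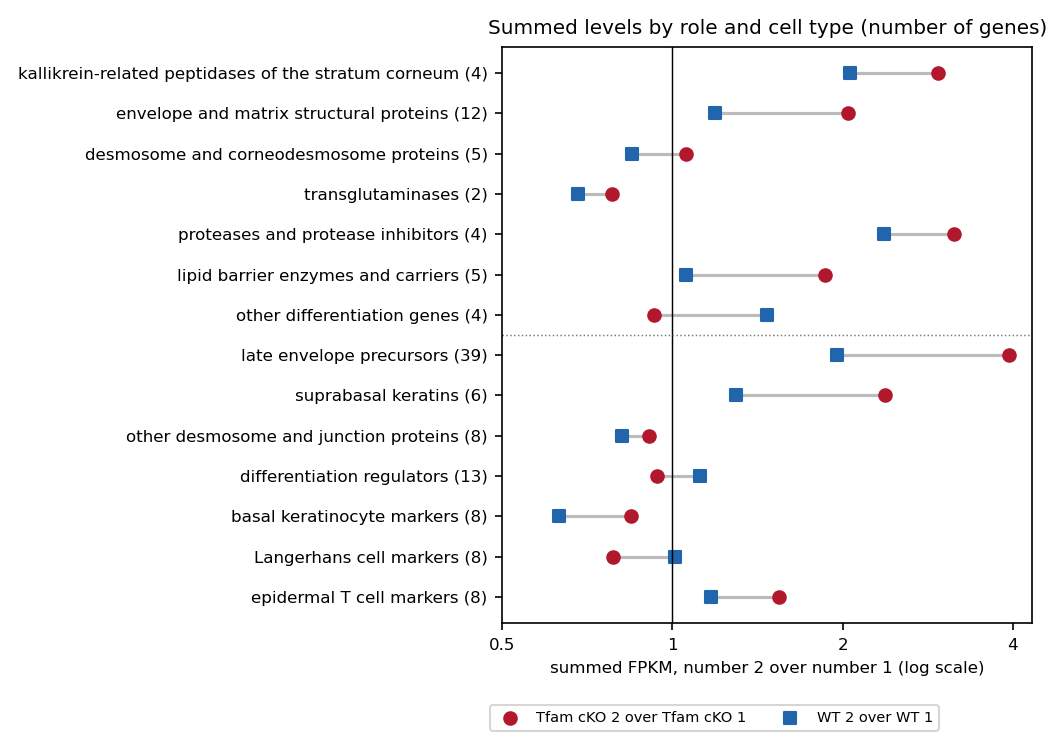
Ratio of summed FPKM of the library numbered 2 over the library numbered 1 (log axis) within Tfam cKO (circles) and within WT (squares), for the role groups above the dotted line and for other cornification genes and cell type markers under it. The 4 kallikreins and the 4 proteases and inhibitors of the role groups, and the late envelope precursors, lie to the right of 1 in both genotypes. The basal keratinocyte markers lie to the left, at 0.843 in Tfam cKO and 0.629 in WT. The 14 other kallikreins, proteases and inhibitors, given in the text, had ratios of 0.887 in Tfam cKO and 0.746 in WT.

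Markers of the cells these libraries can hold also differed between the replicate numbers, and their counts are to be read against 13.7% of all symbols higher and 23.8% lower in both libraries numbered 2. The 8 basal keratinocyte markers summed to 9388 FPKM in Tfam cKO 2 and 11131 FPKM in Tfam cKO 1, against 7176 FPKM in WT 2 and 11407 FPKM in WT 1, and 4 of the 8, Krt5 and Krt14 among them, were lower in both libraries numbered 2. Krt14 was at 3265 and 3587 FPKM in Tfam cKO 2 and 1, against 2362 and 3538 FPKM in WT 2 and 1. Relative to that sum, the 36 cornified envelope genes amounted to 19.3% in Tfam cKO 2 and 10.5% in Tfam cKO 1, against 17.1% in WT 2 and 9.32% in WT 1. The suprabasal keratins, 6 genes, amounted to 12.8% in Tfam cKO 2 and 4.53% in Tfam cKO 1, against 14.2% in WT 2 and 6.93% in WT 1. Both ratios were higher in both libraries numbered 2, and in WT this came mostly with the basal sum, since WT 2 over WT 1 was 1.15 for the 36 genes and 0.629 for the basal markers. The sum of the 36 genes mixes genes of different orders. For the 25 genes with both libraries numbered 2 on top, picked by that order, WT 2 over WT 1 was 1.92. For the other 11 genes it was 0.938. Relative to the Langerhans cell markers, the 36 genes amounted to 10.9% in Tfam cKO 2 and 5.52% in Tfam cKO 1, against 6.82% in WT 2 and 5.98% in WT 1. Epidermal T cell markers summed to 342 and 221 FPKM in Tfam cKO 2 and 1, against 355 and 304 FPKM in WT 2 and 1, with 6 of 8 higher in both libraries numbered 2 and none listed at 0. Outside these 6 were Cd3g, a chain of the T cell receptor complex, and Thy1, a surface protein of T cells. Cd3g was at 70.1 and 36.9 FPKM in Tfam cKO 2 and 1, against 85.1 and 79.2 FPKM in WT 2 and 1. It separated the libraries by genotype, with WT higher. Thy1 lay between 65.6 and 67.01 FPKM. Langerhans cell markers had 3 of 8 lower in both libraries numbered 2 and none higher in both, and Cd74 and H2-Aa, genes of antigen presentation, lay between 9264 and 12340 FPKM and between 3771 and 4579 FPKM. Hair follicle and sebaceous markers, 9 genes, summed to 264 and 221 FPKM in Tfam cKO 2 and 1, against 182 and 148 FPKM in WT 2 and 1, mostly from Krt17, at 114 to 208 FPKM. Scd1 was at 14.3 to 19.9 FPKM, and Krt79, chosen after its values were seen, was at 32.4 and 7.73 FPKM in Tfam cKO 2 and 1, against 14.4 and 5.48 FPKM in WT 2 and 1, higher in both libraries numbered 2. Melanocyte, fibroblast and endothelial markers were low in all libraries, with sums of at most 6.72, 1.07 and 0.418 FPKM. Dct and Kit of melanocytes reached 2.44 and 1.32 FPKM, Dcn and Col1a2 of fibroblasts 0.753 and 0.195 FPKM, and Pecam1 and Cldn5 of endothelium 0.328 and 0.189 FPKM, and Lum, Tie1 and Plin5 were listed at 0 in all 4 libraries. Depth and Y-linked transcripts were also higher in the libraries numbered 2, while Xist did not follow the number, as given above. The part of cell makeup, depth or sex in the order of the cornified envelope genes was not tested, and with 2 libraries of each number these cannot be told apart.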

How the data were processed

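RNA of sorted epidermal Langerhans cells was extracted with Trizol and sequenced from NEBNext Ultra libraries, according to the protocols in the labels. The deposited values are FPKM with a 95% interval, held in 1 table per library (4 in all), as the authors ran Cufflinks, per the file headers. Per the submitters' processing notes, CASAVA and Cufflinks were used with build mm10. No version is named there, and neither aligner nor annotation is given in the sources used here. FPKM of loci with the same symbol were summed (24994 rows, 24441 symbols), and none of the 36 genes had several loci. Total read numbers are unknown. The interval spans 2 standard errors on each side, which gives an effective number of fragments, and the ratio of these numbers over 9593 symbols gives relative depth. Intervals and fragment numbers describe the uncertainty of a value within 1 library, not the spread between libraries. Tfam cKO was compared with WT in limma 3.58.1 (R 4.3.3) on log2(FPKM + 1), which understates changes of low genes, over the 10910 symbols whose mean reached 1 FPKM, with genotype as the only term, variances moderated along the mean, and a Benjamini-Hochberg threshold of 0.05; the fit was tested on simulated data. P-values reflect no more than the spread among the 4 libraries. Replicate number was compared by values and counts, without a test. Genes with a mean of at least 5 FPKM, 19 of the 36, are given in every library, and so are lower genes with a ratio of highest to lowest library of at least 3 or listed at 0; of other lists, the genes of highest level. The genes and lists were chosen with earlier results of these data known. Alternatives were other pseudocounts and filters, rescaling, quantile normalization, other moderation, replicate number as a term and leaving out each library. Figures were drawn with matplotlib 3.10.9.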

Additional observations from a re-analysis of the deposited data

How the results depend on the processing

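The count of 23 of 34 genes with both libraries numbered 2 above both numbered 1 was 24 after rescaling to equal totals and 23 after quantile normalization. Among genes with a mean of at least 1 FPKM in the libraries numbered 1, a filter added after the data were seen, it was 14 of 24. The reverse order, seen for 2 genes, was seen for 1 after either scaling. Shares over all symbols after these scalings are not given here. Within Tfam cKO alone 29 genes were higher and 5 lower in the library numbered 2, and within WT alone 25 were higher and 9 lower, a split added after the data were seen. Of all 10910 symbols, 5196 were higher in the library numbered 2 within Tfam cKO and 4071 within WT. By genotype 0 of the 34 genes were called under every alternative that kept all libraries, except the replicate block. The labels share replicate numbers between the groups without saying that they pair mice, and the differences between numbers in Tfam cKO and WT correlated with r = 0.255 across genes. With that number as a block, 184 symbols were called, 1.33% of all higher and 0.357% lower, and 6 of the 34 genes were called higher (Lor, Sprr1a, Sprr1b, Cnfn, Asprv1 and Lypd3, limma adjusted p from 0.00016 to 0.0207), with 1 residual degree of freedom per gene before moderation. Of the 52 other cornification genes, the block called 2 higher, Cldn4 and Ovol1. When a library was left out, the log2 fold change ran from 0.93 to 1.44 for Cldn4 and from 0.66 to 0.95 for Ovol1.

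The 2 symbols called over all genes numbered 1 with a filter at 5 FPKM, 0 without a filter, 1 with a pseudocount of 5 and 5 with robust moderation, and between 16 and 82 with a library left out. Leaving out a library gave 0 to 13 called genes of the 34, a median log2 fold change from −0.28 to 0.93, and a log2 ratio of summed levels from 0.033 to 0.66, against 0.38 with all libraries. Of 247 refits of the 19 genes with a mean of at least 5 FPKM, 218 kept direction and call, 13 gained a call and 17 changed sign, with Klk7 in both counts without Tfam cKO 2. After quantile normalization and after rescaling to equal totals Klk8 was at −0.064 and −0.11 and Sbsn at −0.029 and −0.036. With a library left out, log2 fold changes spanned −1.07 to 2.13 for Klk7, −0.68 to 0.71 for Klk8, −0.23 to 2.51 for Lor, −1.05 to 1.23 for Sbsn, −1.28 to 1.12 for Krtdap, −0.47 to 0.14 for Dsg1a, −0.53 to 0.15 for Tgm3 and −0.70 to 0.62 for Fabp5. The cause was not tested. Low genes rest on few fragments, as few as 6 for Klk5 in Tfam cKO 1.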
